A study of Mus musculus with 30 samples.

Results

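The genes described here encode the urea cycle and the enzymes that break down amino acids in the liver. A list of 36 genes was followed in the livers of male C57Bl/6NCr mice. A gene was represented by the probe set that the array annotation gave its symbol alone, and by the brightest such probe set over the 30 arrays where there were several. This rule found 33 of the 36 genes, among 22180 genes measured in this way. Gls2, Sds and Sdsl had no probe set of their own and were not analysed here. Nags, Glul and Ahcy had 2 probe sets each.

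By role, the list holds the urea cycle with its activating enzyme and carrier (Cps1, Nags, Otc, Ass1, Asl, Arg1 and Slc25a15). It holds Glul, Oat and the unmeasured glutaminase Gls2 for glutamine and ornithine. The glycine cleavage genes Gldc and Amt, the hydroxymethyltransferase Shmt1 and the unmeasured Sds and Sdsl handle serine and glycine. Mat1a, Gnmt, Ahcy, Cbs and Cth carry methionine through homocysteine to cysteine, and Bhmt returns homocysteine to methionine. Hpd, Hgd and Fah break down tyrosine. Got1, Gpt, Gpt2 and Agxt are aminotransferases. Prodh and Aldh4a1 break down proline, Hal, Uroc1, Amdhd1 and Ftcd break down histidine, and Aass starts the breakdown of lysine. Slc3a1 is the 1 transport gene of the list.

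The study asked how undernourishment in utero (UN) and a later high fat diet (HFD) affect the liver, and what tauroursodeoxycholic acid (TUDCA), a bile acid given as a chemical chaperone, does in this setting. UN pups came from dams that received 40% fewer calories in late pregnancy until the day before delivery. NN pups came from normally nourished dams. All pups were raised by normally nourished dams, and 1 array was run for each animal. Cohort 1 was examined at 9 weeks of age, before HFD, with 3 UN and 3 NN mice. Cohort 2 was examined at 17 weeks, after 8 weeks of HFD, with 4 UN and 4 NN mice. Cohort 3 was examined at 22 weeks, after 13 weeks of HFD, and received TUDCA or vehicle by gavage for the last 5 weeks. It comprised 4 mice in each of UN-TU, UN-Veh, NN-TU and NN-Veh. Animals are named by their number in the sample titles, from 1 to 30. The labels pair no animals between groups, and litters were not given in the sources used here. The values are log2 signals as deposited, so a difference of 1 is a 2-fold difference in signal. Signals of different probe sets are not set against each other.

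The urea cycle turns ammonia, which is released when amino acids are broken down, into urea. Its enzymes lie mainly in periportal hepatocytes, whereas glutamine synthetase captures the remaining ammonia in a narrow layer of pericentral hepatocytes. Feeding, fasting, glucagon and glucocorticoids are known to set the level of many of these enzymes. In whole liver, fewer cells of a type and less RNA per cell cannot be told apart.

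Most arrays were alike, and 4 of the 30 stood apart from their groups or from the rest. In UN replicate 14 at 17 weeks, the SD of all signals was 1.48 and the median correlation with the other arrays was 0.883. In this array 32 of the 33 genes lay below their mean over the arrays, with a median deviation of -2.67. The hepatocyte markers deviated by -2.21 and the housekeeping genes by -2.11 in the same array. UN replicate 13 at 17 weeks had an SD of 1.90 and a summed macrophage marker signal of 11.6, against 9.66 to 10.86 outside UN at 17 weeks, and 24 of the 33 genes lay below their mean. NN-TU replicates 21 and 22 had SDs of 1.92 and 1.91. All 33 genes lay below their mean in both, with median deviations of -0.36 and -0.27, against deviations of the housekeeping genes of -0.26 and -0.25. The remaining 26 arrays had SDs of 1.96 to 2.01 and correlations of 0.983 to 0.991. Results at 17 weeks are therefore given with and without replicate 14. For comparisons that include NN-TU, the median differences of the 33 genes are given with and without replicates 21 and 22. The summed signal of the hepatocyte markers was 14.41 to 14.75 on the arrays other than replicate 14, against 12.37 on that array. Red cell markers were not matched to a probe set of their own.

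**Figure D1:**
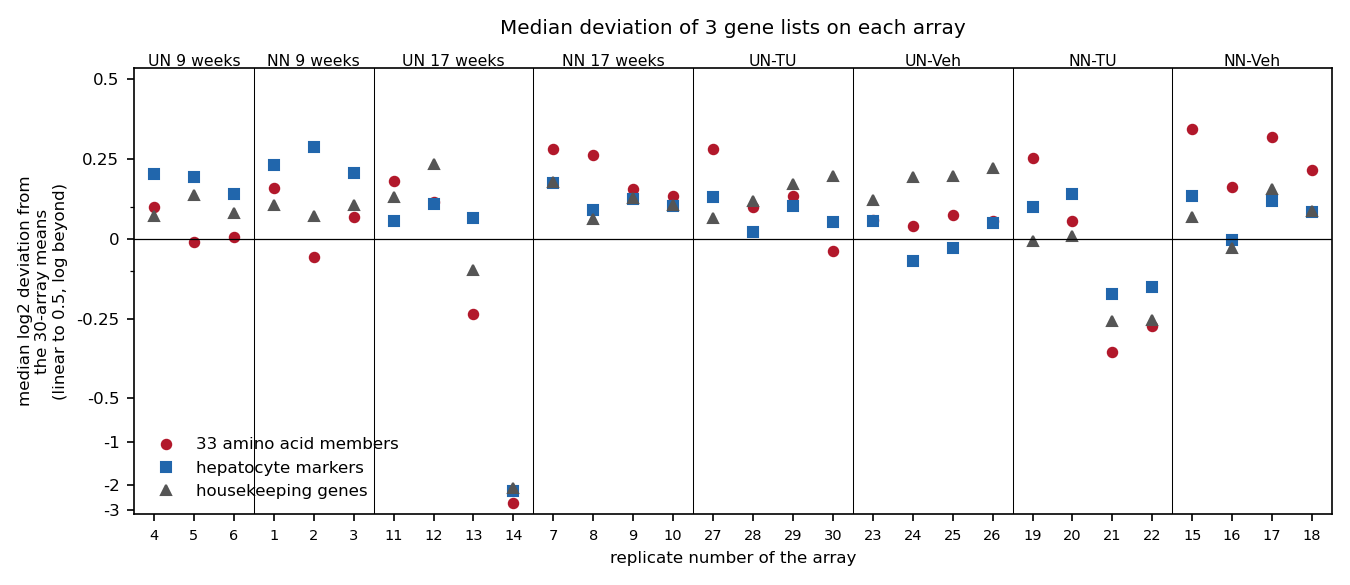
Median deviation of the 33 genes, the hepatocyte markers and the housekeeping genes from their means on each of the 30 arrays (log2, linear to 0.5 and logarithmic beyond; 1 point per list and array, arrays in groups). All 3 lists sit far below the other arrays in UN replicate 14 at 17 weeks, and the 33 genes sit lowest among the rest in NN-TU replicates 21 and 22.

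Slc3a1, Glul and Got1 had the smallest p-values of the 33 genes in UN-Veh against NN-Veh, and the 250 bases before their transcription starts are shown for that reason. Slc3a1 encodes the heavy chain of a transporter of cystine and dibasic amino acids. Got1 encodes the cytosolic aspartate aminotransferase, and Glul encodes glutamine synthetase. The sequences run 5' to 3' on the strand of the gene and come from RefSeq on build GRCm38.p6. They lie at chr17:85028097-85028346 on the plus strand for Slc3a1, at chr19:43524606-43524855 on the minus strand for Got1 and at chr1:153899679-153899928 on the plus strand for Glul. Capitals mark matches to the motifs described next.
Slc3a1: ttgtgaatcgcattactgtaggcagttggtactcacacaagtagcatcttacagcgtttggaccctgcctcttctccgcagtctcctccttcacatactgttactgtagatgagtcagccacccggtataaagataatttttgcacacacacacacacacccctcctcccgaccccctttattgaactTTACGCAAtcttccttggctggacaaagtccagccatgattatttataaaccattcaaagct
Got1: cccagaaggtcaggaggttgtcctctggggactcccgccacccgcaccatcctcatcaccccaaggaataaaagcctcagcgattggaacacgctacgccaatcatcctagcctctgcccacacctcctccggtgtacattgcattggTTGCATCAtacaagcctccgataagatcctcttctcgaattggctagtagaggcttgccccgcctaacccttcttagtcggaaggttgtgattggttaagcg
Glul: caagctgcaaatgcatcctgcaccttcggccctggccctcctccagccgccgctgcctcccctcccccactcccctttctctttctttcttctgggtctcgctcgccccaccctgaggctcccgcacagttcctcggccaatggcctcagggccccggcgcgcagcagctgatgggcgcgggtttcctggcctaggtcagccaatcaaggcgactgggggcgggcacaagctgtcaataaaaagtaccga

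Windows of this length were searched on both strands for TGACG, the core of the CREB site, for TTGCNNAA, a C/EBP pattern, and for TGATGNAA, a composite C/EBP-ATF pattern bound by ATF4. TTGCNNAA and TGATGNAA share letters and can match overlapping bases. Of the 36 genes, 27 had a promoter in the RefSeq table. TGACG was found in 3 of the 27, against 17.8% of 32851 promoters. TTGCNNAA was found in 4 of the 27, against 9.56% of all promoters. Slc3a1 had such a match at position -62 from the start, and the other matches were in Aass, Hal and Hgd. TGATGNAA was found in 1 of the 27, against 3.45% of all promoters. That match lay at position -102 of Got1. The window of Glul held none of the 3 patterns. A match describes the letters of the window and not a binding site.

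Across the 29 arrays other than UN replicate 14, the signal of most of these genes varied little. The SD over the arrays was 0.12 for Hpd, which acts early in tyrosine breakdown, and 0.71 for Slc3a1, with a median of 0.23 over the 33 genes. Slc3a1 spanned 2.61 on the log2 scale. NN-Veh had the highest group mean for 13 of the 33 genes and NN at 17 weeks for 12. NN-TU had the lowest group mean for 15 genes and UN at 9 weeks for 8. All 33 genes lay below their mean in NN-TU replicates 21 and 22, and the ranks were not repeated without these arrays. Glul was the 1 gene that was highest in UN-Veh and also the 1 gene that was lowest in NN-Veh. The range of the group means was 1.46 to 4.59 times the pooled SD within groups, with Ftcd at the low end and Gpt at the high end.

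**Figure D2:**
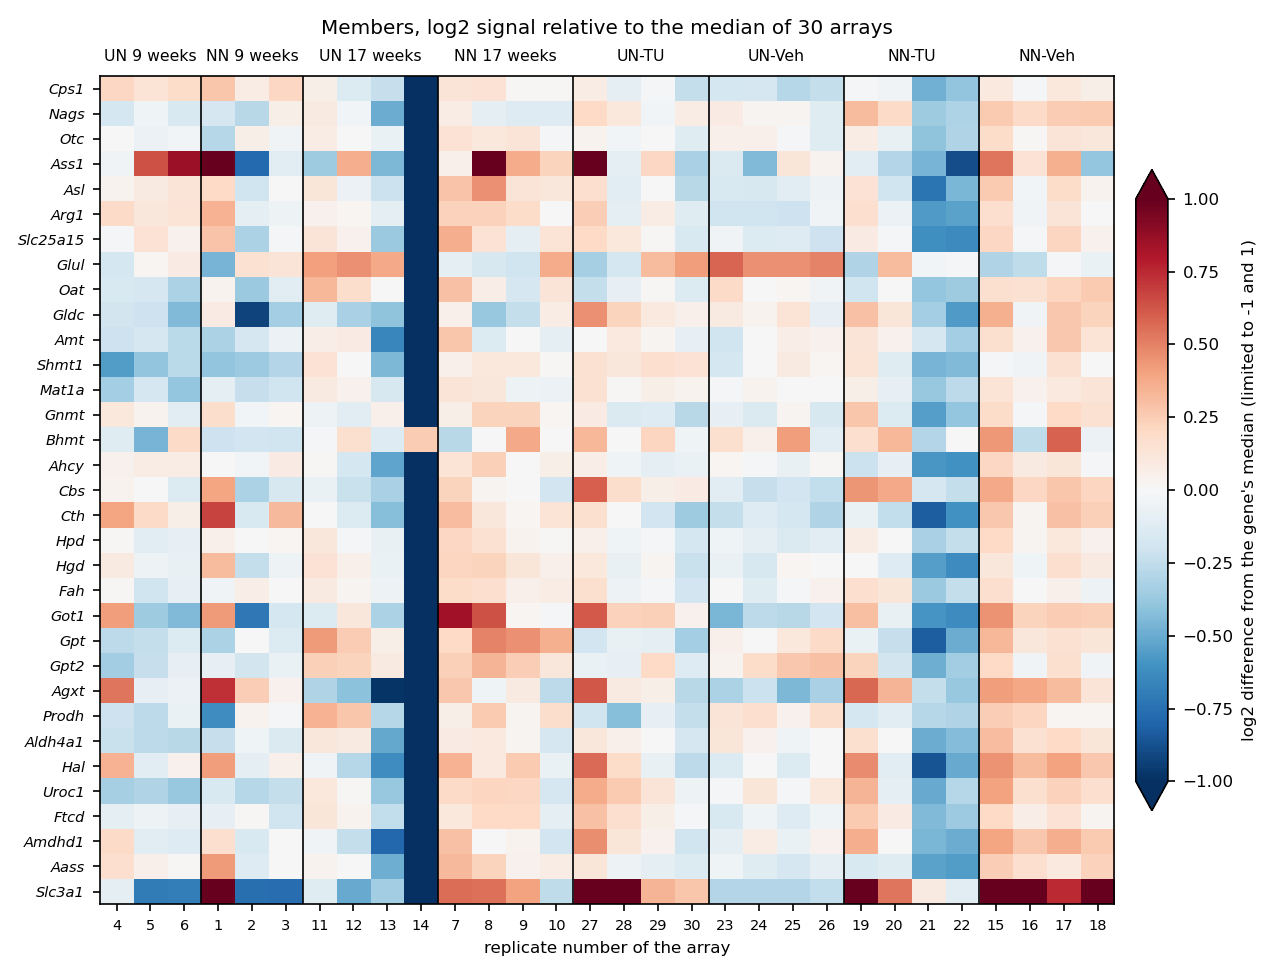
Log2 signal of the 33 genes (rows, by role) on the 30 arrays (columns, by group), each relative to the gene's median over the arrays and limited to -1 and 1. UN replicate 14 at 17 weeks is low for almost all genes, NN-TU replicates 21 and 22 are low for most, and Glul is high in UN-Veh and low in NN-Veh.

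The comparison of UN-Veh with NN-Veh asks what undernourishment in utero left behind after 13 weeks of HFD without TUDCA. Most of the genes were lower in UN-Veh, by small amounts, and Slc3a1 was lower by more. Of the 33 genes, 30 had a lower mean in UN-Veh, against 44.9% of all 25341 probe sets named by a gene. The median difference was -0.20 for the 33 genes and 0.02 for all named probe sets. A gene was called where its adjusted p was under 0.05 (limma, Benjamini-Hochberg over all named probe sets). By this rule 1 of the 33 genes was called lower, against 0.107% of all, and 0 were called higher, against 0.312% of all. Without adjustment, 10 of the 33 were lower at p under 0.05, against 3.42% of all, and 1 was higher, against 5.89%. The groups did not overlap for 17 genes that were lower in UN-Veh, against 2.88% of all probe sets, and for 1 that was higher, against 4.72%.

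Slc3a1 signals were 8.43, 8.43, 8.43 and 8.47 in UN-Veh, against 9.86, 9.79, 9.46 and 9.88 in NN-Veh. All 4 UN-Veh mice lay below all 4 NN-Veh mice, and they lay close to each other. The gene was lower in UN-Veh than in NN-Veh by 1.31 (SE 0.27), which is 2.48-fold, with an adjusted p of 0.0348 in limma. Over the arrays other than UN replicate 14, its group mean was highest in NN-Veh and lowest in UN at 9 weeks. Slc3a1 was the 1 gene of the 33 past the thresholds of the study's methods, a linear fold of 2 with an unadjusted p under 0.05. The p was taken from limma here, and 0.0592% of all probe sets passed these thresholds in the lower direction. The call was lost when any 1 of these 8 arrays was left out, with an adjusted p of 0.0628 to 0.129 and differences of -1.41 to -1.27.

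Glul went the other way. Its signals were 11.29, 11.17, 11.17 and 11.20 in UN-Veh, against 10.41, 10.46, 10.69 and 10.65 in NN-Veh. The groups did not overlap, and the difference was 0.66 (SE 0.15) with an adjusted p of 0.0502 in limma, just short of the threshold. It was called with array weights (adjusted p 0.0199) and among the brighter probe sets (adjusted p 0.0329), and leaving out single arrays gave adjusted p-values of 0.0164 to 0.172. Over all 10 other alternatives, by limma or the ANOVA of the methods, the adjusted p of Glul was 0.0044 to 0.99998. The call therefore depended on the fit. The second probe set of Glul, which was dim, differed by 0.91 in the same direction (adjusted p 0.055). Other genes of the pericentral layer, taken from a list of 10 that does not hold Glul, were higher in UN-Veh in 9 of 10 cases with 1 called. Of all probe sets, 55.1% were higher and 0.312% were called higher. The called gene was Slc13a3, a dicarboxylate transporter, which rose by 0.98 (adjusted p 0.00453, limma). Of 8 periportal genes that are not among the 33, 4 were higher and 4 were lower.

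Among the aminotransferases, Got1 and Agxt were lower in UN-Veh without passing the adjusted test. Got1 signals were 9.83, 10.02, 10.01 and 10.09 in UN-Veh and 10.73, 10.51, 10.54 and 10.52 in NN-Veh. The difference was -0.59 (SE 0.16), with an adjusted p of 0.132 in limma. Agxt, which converts glyoxylate to glycine, gave 9.15, 9.25, 9.02 and 9.14 in UN-Veh and 9.89, 9.86, 9.79 and 9.60 in NN-Veh. Its difference was -0.64 (SE 0.18), with an adjusted p of 0.147. The groups overlapped for neither gene. The alanine aminotransferases Gpt and Gpt2 differed by -0.09 and 0.12.

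All 7 urea cycle genes had a lower mean in UN-Veh, by 0.12 to 0.28, and none was called. Cps1, which makes carbamoyl phosphate in the first step, had signals of 11.75, 11.76, 11.64 and 11.68 in UN-Veh and 12.02, 11.91, 12.02 and 11.98 in NN-Veh. The groups did not overlap, with a difference of -0.28 and an adjusted p of 0.343 in limma. The groups also did not overlap for Nags, which makes the activator of Cps1, for the lyase Asl, for arginase Arg1 and for the mitochondrial ornithine carrier Slc25a15. Otc and Ass1 overlapped. The second probe set of Nags differed by 0.004, against -0.24 for the first.

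The 6 genes of methionine and transsulfuration were also all lower, with a median of -0.17. Cbs, which joins homocysteine and serine, gave 10.02, 9.89, 9.93 and 9.88 in UN-Veh and 10.50, 10.33, 10.40 and 10.34 in NN-Veh. Its difference was -0.46 (SE 0.14; adjusted p 0.189, limma). Cth, which cleaves the product to cysteine, gave 10.66, 10.77, 10.72 and 10.60 in UN-Veh and 11.17, 10.93, 11.19 and 11.14 in NN-Veh. Its difference was -0.42 (SE 0.14; adjusted p 0.24). The groups overlapped for neither gene. The 4 genes of histidine breakdown (Hal, Uroc1, Ftcd and Amdhd1) were lower by 0.19 to 0.43 and did not overlap either, and none was called. Aass, which starts lysine breakdown, differed by -0.29 (adjusted p 0.288).

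Genes near these pathways were counted in the same comparison, in which 44.9% of all probe sets were lower. Of 21 genes for the breakdown of branched-chain amino acids, 12 were lower and 1 was called. This was Ppm1k, the phosphatase that activates the branched-chain ketoacid dehydrogenase, which fell by 0.44 (adjusted p 0.0372, limma). Of 39 other genes of amino acid catabolism, 19 were lower and none was called. Of 25 amino acid transporters other than Slc3a1, 15 were lower and none was called. In a list of 9 genes that respond to fasting and glucagon, Igfbp1 fell by 1.05 (adjusted p 0.0411) and Fgf21 rose by 0.83 (adjusted p 0.0432). Markers of Kupffer cells and macrophages were lower in 6 of 7 cases, with summed signals of 10.1 to 10.4 in UN-Veh and 10.3 to 10.9 in NN-Veh. Hepatocyte markers had a median difference of -0.07, and 0 of 7 had an unadjusted p under 0.05. The part of these other cells in the differences was not tested.

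**Figure D3:**
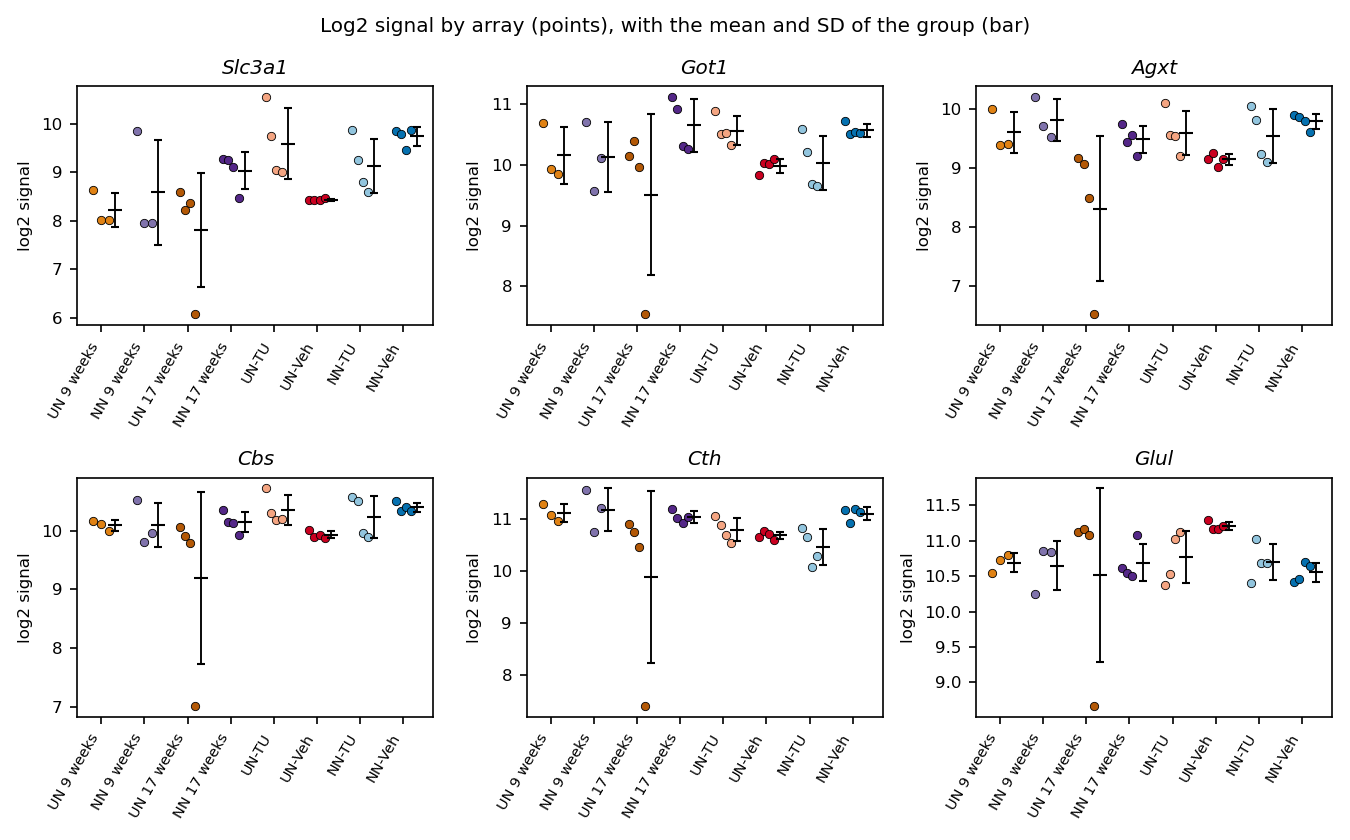
Log2 signal of Slc3a1, Got1, Agxt, Cbs, Cth and Glul in the 8 groups (1 point per array, bars are the mean and SD). Slc3a1 is at 8.43 to 8.47 in UN-Veh and at 9.46 to 9.88 in NN-Veh, and Glul shows the opposite order with 11.17 to 11.29 in UN-Veh and 10.41 to 10.69 in NN-Veh.

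NN-TU and NN-Veh were compared to ask what TUDCA does in normally nourished offspring on HFD. The NN-Veh mice are those of the previous comparison. Almost all of the genes were lower in NN-TU, and much of this rested on replicates 21 and 22. Of the 33 genes, 32 had a lower mean in NN-TU, against 62.2% of all named probe sets. The median difference was -0.33 for the 33 genes and -0.04 for all. By the adjusted test 5 genes fell, against 1.06% of all, and none rose, against 0.292%. Without adjustment 27 were lower at p under 0.05, against 11.5% of all. The groups did not overlap for 7 of the 33 genes, against 5.8% of all. All 7 urea cycle genes were lower, with a median of -0.31 and unadjusted p under 0.05 for each, and none was called. The second probe set of Nags differed by 0.28 in the other direction (adjusted p 0.105, limma), against -0.28 for the first. Among the 33 genes Glul was the exception, with a difference of 0.15. The second probe set of Glul differed by 0.78 (adjusted p 0.0653, limma).

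Aass gave 10.34, 10.37, 9.96 and 9.93 in NN-TU and 10.73, 10.66, 10.59 and 10.72 in NN-Veh. Its difference was -0.53 (SE 0.10), with an adjusted p of 0.0119 in limma. In all 5 genes that fell, the 4 NN-TU mice lay below the 4 NN-Veh mice. Gpt, which moves the amino group of alanine, gave 8.84, 8.67, 8.08 and 8.41 in NN-TU and 9.23, 9.02, 9.05 and 9.02 in NN-Veh. It fell by 0.58 (SE 0.12; adjusted p 0.0203). Cth gave 10.84, 10.65, 10.08 and 10.29 in NN-TU and fell by 0.64 (SE 0.14; adjusted p 0.0208). In each of these genes replicates 21 and 22 were the lowest NN-TU mice. Oat, which breaks down ornithine, gave 10.94, 11.14, 10.75 and 10.78 in NN-TU and 11.29, 11.29, 11.35 and 11.40 in NN-Veh. It fell by 0.43 (SE 0.09; adjusted p 0.0224), and replicates 21 and 22 were again the lowest. Ahcy, which hydrolyses S-adenosylhomocysteine, gave 10.30, 10.43, 9.93 and 9.90 in NN-TU and 10.71, 10.60, 10.63 and 10.49 in NN-Veh. It fell by 0.47 (SE 0.10; adjusted p 0.0247), while its second and dim probe set differed by 0.21 in the other direction.

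Without replicates 21 and 22, none of the 33 genes was called, against 0.0987% of all probe sets. The lower mean then held for 25 of the 33 genes, against 52.7% of all, with a median of -0.11. The 5 genes kept a negative difference. It was -0.32 for Aass (adjusted p 0.18, limma), -0.33 for Gpt (0.223), -0.29 for Oat (0.254), -0.36 for Cth (0.276) and -0.25 for Ahcy (0.281). Leaving out replicate 19, which was the highest NN-TU mouse for 27 of the 33 genes, gave 19 calls instead, against 2.81% of all probe sets. The wider amino acid lists were counted in the comparison of all arrays, in which 62.2% of all probe sets were lower and 1.06% were called lower. Their counts are not given without replicates 21 and 22. Of 21 genes of branched-chain amino acid breakdown, 20 were lower and 6 were called, Ppm1k among them with -0.49 (adjusted p 0.00946). Of 39 other catabolic genes, 34 were lower and 6 were called, among them Dmgdh with -0.48 and Agxt2 with -0.51 (adjusted p 0.0193 for both). Markers of Kupffer cells and macrophages were lower in 7 of 7 cases, with summed signals of 9.79 to 10.4 in NN-TU and 10.3 to 10.9 in NN-Veh. Housekeeping genes were lower in 5 of 7 cases with a median of -0.11. Their part in the differences was not tested.

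UN-TU and UN-Veh were compared to ask what TUDCA does in undernourished offspring on HFD. None of the 33 genes passed the adjusted test, against 0.406% of all probe sets called in either direction. Without adjustment 4 genes were higher, against 4.96% of all, and 3 were lower, against 5.64%. The 4 with higher signals were Slc3a1, Got1, Cbs and Agxt, and the 3 with lower signals were Prodh, Glul and Gpt. Of the 33 genes, 22 had a higher mean in UN-TU, against 46.8% of all, with a median of 0.07. The groups did not overlap for 5 genes that were higher, against 3.69% of all, and for 3 that were lower, against 3.68%. This comparison shares the UN-Veh mice with the comparison of UN-Veh and NN-Veh, so the 2 sets of differences are not independent.

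Slc3a1 signals were 10.56, 9.76, 9.06 and 9.00 in UN-TU, against 8.43, 8.43, 8.43 and 8.47 in UN-Veh. All UN-TU mice lay above all UN-Veh mice, and they spread far more widely. The difference was 1.16 (SE 0.27), with an adjusted p of 0.0649 in limma, and it passed the thresholds of the study's methods, as did 0.075% of all probe sets in the higher direction. Without UN-TU replicate 27, the highest mouse, it was 0.83 with an adjusted p of 0.188 and no longer passed them. This replicate was the highest UN-TU mouse for 26 of the 33 genes.

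Got1 gave 10.90, 10.51, 10.52 and 10.33 in UN-TU, with UN-Veh as above, and did not overlap. The difference was 0.58 (adjusted p 0.133, limma). Cbs gave 10.72, 10.30, 10.18 and 10.20 in UN-TU and differed by 0.42 (adjusted p 0.236), again with no overlap. Agxt differed by 0.45 (adjusted p 0.366), and its lowest UN-TU mouse at 9.20 lay within the UN-Veh range. Prodh, the first enzyme of proline breakdown, gave 8.29, 8.06, 8.40 and 8.25 in UN-TU and 8.62, 8.65, 8.53 and 8.66 in UN-Veh. Its difference was -0.36 (adjusted p 0.0815) with no overlap. Glul gave 10.38, 10.54, 11.03 and 11.13 in UN-TU, all below the 4 UN-Veh mice, with a difference of -0.44 (adjusted p 0.234). The second probe set of Glul differed by -0.64.

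The urea cycle genes were higher in UN-TU in 6 of 7 cases, by up to 0.33, and no unadjusted p was under 0.05. Pericentral genes outside the 33 were lower in 7 of 10 cases with 2 called, where 53.2% of all probe sets were lower and 0.268% were called lower. Rhbg, an ammonia transporter, fell by 1.10 (adjusted p 0.00152, limma) and Slc13a3 fell by 1.02 (adjusted p 0.00186). Igfbp1 rose by 1.15 (adjusted p 0.0251). Of 39 other catabolic genes 1 was called, Kyat1, a kynurenine aminotransferase, which rose by 0.67 (adjusted p 0.0353). Of 16 clock genes, 4 were higher and 7 were lower at an unadjusted p under 0.05, against 4.96% and 5.64% of all probe sets. Per3 with -0.94 and Arntl with 1.10 were among them, and none was called. The time of day of tissue collection was not compared between the groups, and its part in these differences was not tested.

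**Figure D4:**
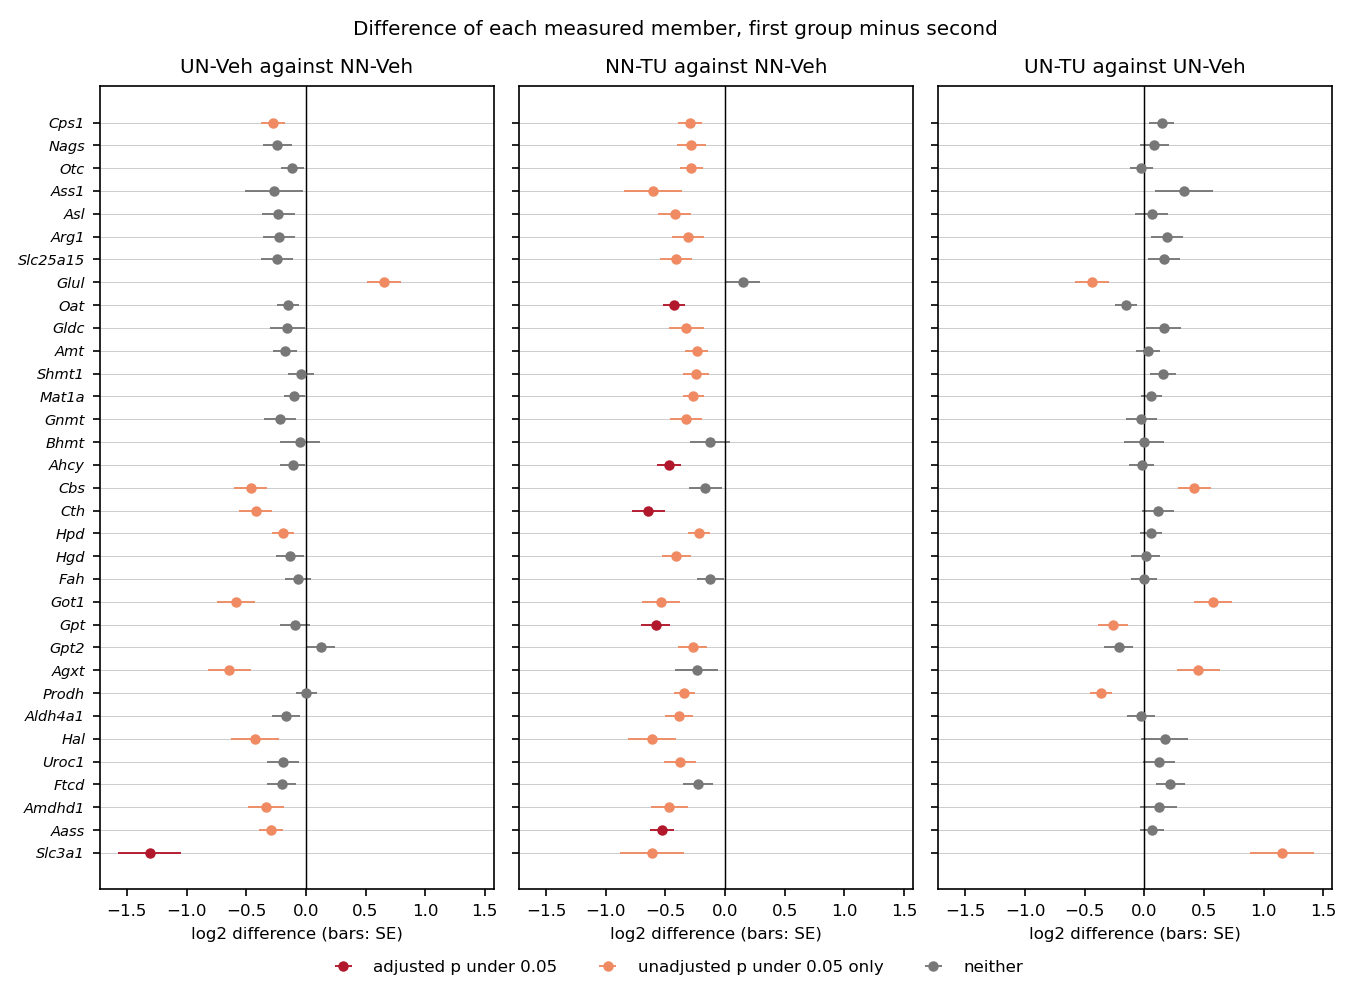
Log2 difference of each of the 33 genes in 3 comparisons of cohort 3 (UN-Veh over NN-Veh, NN-TU over NN-Veh, UN-TU over UN-Veh; bars are the SE). Dark red marks an adjusted p under 0.05, orange an unadjusted p under 0.05 alone and grey neither, so that Slc3a1 is the 1 called gene of the first comparison, 5 genes are called in the second and none in the third.

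With TUDCA in both groups, 32 of the 33 genes had a higher mean in UN-TU than in NN-TU, against 64.3% of all probe sets. None was called, against 0.474% of all, and 11 were higher at an unadjusted p under 0.05, against 13.3%. The groups overlapped for each of the 33 genes, where 5.87% of all probe sets were higher without overlap. Shmt1, the cytosolic serine hydroxymethyltransferase, differed by 0.37 and Got1 by 0.53, both with an adjusted p of 0.114 or more. The median was 0.23 with all arrays and -0.03 without NN-TU replicates 21 and 22, so the direction rested on them. After quantile normalization was repeated, 21 of the 33 were higher.

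The difference between the TUDCA change in UN and the TUDCA change in NN was tested directly in the same fit. None of the 33 genes was called, as was the case for all probe sets (0%). Of the 33, 31 had a more positive TUDCA change in UN, against 57.2% of all, and 24 had an unadjusted p under 0.05 in that direction, against 7.95%. The median was 0.44, against 0.04 for all. It was 1.11 for Got1 (SE 0.23; adjusted p 0.0825, limma) and 1.77 for Slc3a1 (SE 0.38; adjusted p 0.0982). Both passed the thresholds of the study's methods, against 0.154% of all. Glul had the opposite sign, with -0.59, and was the 1 gene with an unadjusted p under 0.05 in that direction, against 3.93%. The second probe set of Glul gave -1.41 (adjusted p 0.0843, limma). Without NN-TU replicates 21 and 22 the median was 0.17, with 0.75 for Got1 (adjusted p 0.267) and 1.34 for Slc3a1 (adjusted p 0.341). Without NN-TU replicate 19, 4 of the 33 were called, against 0.41% of all, Got1 among them with an adjusted p of 0.0034.

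Before HFD, at 9 weeks, the genes were not told apart between UN and NN. None of the 33 was called, as for all probe sets (0%), and none had an unadjusted p under 0.05, against 3.61% of all. Differences were between -0.36 for Slc3a1 and 0.45 for Ass1, with a median of -0.02. Slc3a1 gave 8.63, 8.02 and 8.03 in UN and 9.85, 7.96 and 7.95 in NN. The UN mice lay within the NN range, and 1 NN mouse stood well above the others. Got1 gave 10.70, 9.93 and 9.84 in UN and 10.71, 9.57 and 10.11 in NN. Glul gave 10.54, 10.73 and 10.80 in UN and 10.25, 10.86 and 10.84 in NN.

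After 8 weeks of HFD, at 17 weeks, the result depended on UN replicate 14. With it, 32 of the 33 genes had a lower mean in UN, against 57.6% of all, the median was -0.84, against -0.05 for all, and none was called, as for all probe sets (0%). With the p of limma, Slc3a1 passed the thresholds of the study's methods with -1.22 (adjusted p 0.721), against 0.185% of all. With the p of the ANOVA used in the study it did not. When replicate 14 was left out, 31 genes were lower, against 48.4% of all, with a median of -0.17. At an unadjusted p under 0.05, 6 were lower and 1 was higher, against 6.05% of all in either direction, none was called and none passed the study's thresholds, against 0.122% of all.

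Slc3a1 signals were 8.60, 8.22, 8.37 and, in replicate 14, 6.07 in UN at 17 weeks, against 9.28, 9.27, 9.12 and 8.47 in NN. Without replicate 14 the difference was -0.64 (SE 0.20), and 1 NN mouse lay within the UN range. Glul gave 11.12, 11.17, 11.09 and, in replicate 14, 8.67 in UN, against 10.62, 10.55, 10.51 and 11.08 in NN. The 3 other UN mice lay above all NN mice, with a difference of 0.43. With replicate 14 the mean of Glul was lower in UN, while its second probe set was higher by 0.53 (adjusted p 0.721, limma). Agxt gave 9.17, 9.06, 8.49 and, in replicate 14, 6.52 in UN, against 9.74, 9.43, 9.56 and 9.21 in NN. Without replicate 14 its difference was -0.58, that of Hal -0.47, that of Cth -0.33 and that of Cps1 -0.18. The lowest adjusted p among the 33 genes was then 0.819. Replicate 13 had the lowest Agxt of the 3 and a raised macrophage signal, and without it as well the median was -0.06, with -0.63 for Slc3a1 and 0.45 for Glul. The differences of the other genes were then -0.37 for Agxt, -0.32 for Hal, -0.21 for Cth and -0.12 for Cps1.

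Changes with age were compared within UN and within NN. Each age is a separate cohort, so age, time on HFD, gavage and cohort cannot be told apart. At 22 weeks, UN-Veh was set against UN at 9 weeks. Cps1 gave 11.75, 11.76, 11.64 and 11.68 in UN-Veh and 12.13, 12.06 and 12.10 in UN at 9 weeks. It fell by 0.39 (adjusted p 0.0238, limma), where 2.07% of all probe sets were called lower. Shmt1 gave 8.85, 9.03, 9.12 and 9.05 in UN-Veh and 8.47, 8.63 and 8.75 in UN at 9 weeks. It rose by 0.39 (adjusted p 0.0378), where 4.7% of all were called higher. Mat1a, which makes S-adenosylmethionine, gave 12.14, 12.20, 12.16 and 12.17 in UN-Veh and 11.82, 11.99 and 11.78 in UN at 9 weeks. It rose by 0.30 (adjusted p 0.0484). The groups overlapped for none of these 3 genes. They were the only called genes of the 33, against 6.77% of all probe sets called in either direction. The second probe set of Nags rose by 0.69 (adjusted p 0.00294, limma), whereas the first, which represents the gene here, differed by 0.13 (adjusted p 0.669). The groups did not overlap for 10 genes that were higher, against 12% of all, and for 8 that were lower, against 6.95%. In all, 17 of the 33 genes were higher, against 54.7% of all, and 16 were lower, and 9 were higher and 4 lower at an unadjusted p under 0.05, against 12.1% and 6.85% of all.

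In NN-Veh against NN at 9 weeks, none of the 33 genes was called, against 3.43% of all. The mean was higher in NN-Veh for 28 of them, against 50.8% of all, with a median of 0.20. Slc3a1 differed by 1.16 (adjusted p 0.087, limma). With the p of limma it passed the thresholds of the study's methods, as did 0.268% of all in the higher direction. With the p of the ANOVA it did not. Uroc1, the urocanate hydratase of histidine breakdown, differed by 0.47 (adjusted p 0.053). Shmt1 differed by 0.37 (adjusted p 0.0759, limma) and Mat1a by 0.28 (adjusted p 0.105), so their rises were not particular to UN. The mean of Cps1 was 11.98 in NN-Veh and 12.11 in NN at 9 weeks. At 17 weeks against 9 weeks, NN had 30 of 33 genes higher, against 47.8% of all, with a median of 0.15. With UN replicate 14 in the shared estimate of the spread, no gene had an unadjusted p under 0.05 (2.5% of all in either direction) and none was called (0.0158% of all). Without it, Gpt, Gpt2, Shmt1 and Uroc1 were higher at an unadjusted p under 0.05, against 8.07% of all in either direction, and none was called (0.197% of all). Gpt gave 9.10, 9.40, 9.36 and 9.26 in NN at 17 weeks and 8.58, 8.90 and 8.76 in NN at 9 weeks. Its difference was 0.53 (SE 0.12), with an adjusted p of 0.122 in limma. Shmt1 differed by 0.42 (adjusted p 0.341) and Gpt2 by 0.35 (adjusted p 0.288). For these 3 genes and for Mat1a the groups did not overlap, where 5.17% of all probe sets were higher without overlap. For UN at 17 weeks against UN at 9 weeks the median was -0.63 with replicate 14 and 0.03 without it. Without it 6 genes were higher and 5 lower at an unadjusted p under 0.05, against 13.1% of all in either direction. With replicate 14 and the p of limma, Agxt passed the thresholds of the study's methods, with a difference of -1.29 (adjusted p 0.544). So did 1.07% of all probe sets in the lower direction. With the p of the ANOVA Agxt did not pass them. Without replicate 14 Agxt differed by -0.70 and Glul by 0.44. None of the 33 was called with all arrays, against 0.122% of all, or without replicate 14, against 1.03% of all. Without replicates 13 and 14, 2 were called, against 1.97% of all.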

How the data were processed

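Liver RNA of 30 mice was measured on Affymetrix MoGene arrays, with 1 array per animal. The deposited table holds log2 signals of 41345 probe sets, which the authors made with Affymetrix Expression Console according to the submitters' processing notes. The summarization method and version were not given in the sources used here. Array medians lay close together, and no further normalization was done. Array and animal number limit the precision.

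Of the probe sets, 25341 carried a gene name and were tested, 1820 of them with several symbols, and 16004 carried none. Differences were fitted within the cohorts compared with limma 3.58.1 (lmFit and eBayes) in R 4.3.3, with two-sided tests and Benjamini-Hochberg adjustment over the 25341. A gene was called at an adjusted p under 0.05. The study's thresholds were also applied, with a linear fold of 2 and an unadjusted p under 0.05, taken from limma in place of the ANOVA. Because the labels do not say whether mice came from separate litters, p-values measure the spread between these arrays. The fit was tested on simulated data. Python 3.11.15 with matplotlib 3.10.9 drew the figures. Sequences and positions are from RefSeq for GRCm38.p6.

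The genes, the lists and the comparisons were chosen with earlier results of these data known. All 36 members are named by role. Per-array values were to be given for members called or past the study's thresholds, and other members were given theirs after their values were seen. From the other lists, at most the 3 genes of smallest p in a comparison are named. Alternatives were the ANOVA of the methods, other sets of arrays in the fit, array weights, filters, probe set rules, scalings and leaving out arrays.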

Additional observations from a re-analysis of the deposited data

Results flagged for a closer look

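Within groups of 4 mice, the gap between the most distant array and its neighbour was divided by the range of the group, and values above 0.829 are given here for 12 genes, which are Glul and those called or past the thresholds of the study in a comparison, and for the array measures. Such a value arises by chance in about 5% of groups. In UN at 17 weeks, replicate 14 was the lowest array with 0.913 for Cps1, 0.966 for Glul, 0.900 for Oat, 0.912 for Mat1a, 0.876 for Cth, 0.851 for Got1, 0.869 for Gpt, 0.829 for Aass and 0.848 for Slc3a1. It was also apart in the median deviation of the 33 genes (0.854) and in its correlation with the other arrays (0.846). In NN-Veh, the highest array was apart for Got1 (0.878) and Shmt1 (0.836). In UN-Veh, the highest array was apart for Slc3a1 (0.906), in a group whose 4 signals were 8.43, 8.43, 8.43 and 8.47. Over all 33 genes and the groups of 4, 28 of 198 sets had such an array, 21 of them in UN at 17 weeks.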

How the results depend on the processing

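In UN-Veh against NN-Veh 1 of the 33 genes was called. The count was 0 with all 30 arrays in 1 fit and with all probe sets of the table, 7 with the compared groups alone, 4 with array weights, 2 among the brighter probe sets and with the mean over a gene's probe sets, 5 after quantile normalization, and 0 to 3 when single arrays were left out. Over the 10 alternatives that keep all arrays, the adjusted p (limma or ANOVA) was 0.0055 to 0.99998 for Agxt and 0.0077 to 0.99998 for Got1. It was 0.011 to 0.99998 for Cbs, 0.030 to 0.99998 for Cps1 and 0.033 to 0.99998 for Cth. In NN-TU against NN-Veh 5 were called, with 0 by the ANOVA of the methods, with all 30 arrays, with the compared groups alone and without NN-TU replicates 21 and 22, 3 with all probe sets, and 0 to 19 without single arrays (0 without NN-TU replicate 21, 19 without NN-TU replicate 19). Nags at 0.013 and Gldc at 0.0065 turned positive without replicates 21 and 22. So did Agxt at 0.14, Cbs at 0.14, Fah at 0.10, Bhmt at 0.07 and Ftcd at 0.06. In UN-TU against UN-Veh 0 were called, with 1 under array weights and after quantile normalization, 2 among the brighter probe sets and 0 to 2 without single arrays. For the study's thresholds it was 0 to 1, with 0 without UN-TU replicate 27. In UN-TU against NN-TU 0 were called, with 0 to 3 without single arrays. For the difference of the TUDCA changes, the calls were 0 to 4 without single arrays, and 2 genes passed the study's thresholds, with 1 in the fit of all 30 arrays and without replicates 21 and 22, and 1 to 4 without single arrays. At 17 weeks 1 gene passed the study's thresholds in UN against NN, with 9 in the fit of all 30 arrays, 0 by the ANOVA, with a variance trend, with array weights and after quantile normalization, and 0 to 4 without single arrays. In UN at 17 against 9 weeks 1 passed, with 4 in the fit of all 30 arrays, 0 by the ANOVA, with the compared groups alone, with array weights and after quantile normalization, and 0 to 7 without single arrays. In UN-Veh against UN at 9 weeks 3 were called, with 0 in the fit of all 30 arrays, 6 with the compared groups alone, 5 among the brighter probe sets, after quantile normalization and with the mean over probe sets, 1 with all probe sets, and 0 to 5 without single arrays. In NN-Veh against NN at 9 weeks 0 were called, with 1 with the compared groups alone, with a variance trend and with a common median, 4 with array weights and among the brighter probe sets, 9 after quantile normalization and 0 to 3 without single arrays. For the study's thresholds it was 0 by the ANOVA and 0 to 1 without single arrays. The causes were not tested. Scaling moved the split of all called probe sets. It was 79 higher and 27 lower in UN-Veh against NN-Veh, and 62 and 41 after quantile normalization. It was 74 and 268 in NN-TU against NN-Veh, 140 and 217 after quantile normalization, and 111 and 190 with a common median. It was 88 and 32 in UN-TU against NN-TU, 10 and 23 after quantile normalization, and 34 and 32 with a common median. No paired analysis was possible because the labels pair no animals between groups and litters were not given in the sources used here. Signals near the array median, as for Bhmt, may understate a change.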
